A study of Mus musculus with 26 samples.

Results

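EpCAM-positive tumour cells of IgG control mice, harvested 47 days after injection, were set against EpCAM-positive tumour cells of CD4/CD8-depleted mice, harvested 20 days after injection. The libraries were chosen by 2 labels alone, the sort gate and the treatment, which took 12 of the 26 libraries of the series, 6 in each group. All cells derived from E-A14, a Her2-expressing mammary tumour line of the mouse, placed in the fourth mammary fat pad of FVB/N animals aged 6 to 8 weeks. Mice of the depleted group received 100 µg of anti-CD4 and 100 µg of anti-CD8a, antibodies that remove helper and cytotoxic T cells. Mice of the control group received 100 µg each of rat IgG2a and rat IgG2b, the matching isotypes. Both regimens were given 2 times a week from 2 weeks before implantation until harvest at the growth end-point. Live cells lacking CD90, CD105 and CD45 were sorted as Her2-positive and EpCAM-positive in both groups. The remaining libraries, used below as points of comparison, were 6 of EpCAM-negative cells per treatment from the same kinds of tumour and 2 of the line in culture. All tumours came from 1 cell line, and treatment went together with day of harvest. The presence of T cells, the age of the tumour and the rate at which it reached its end-point therefore cannot be told apart in any value given here.

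T cells act on tumour cells in part through interferon-gamma, which binds the receptor chains Ifngr1 and Ifngr2 and signals through the kinases Jak1 and Jak2. The signal induces the factor Irf1, and factors of this pathway bind GAS and ISRE elements in the promoters of immune GTPases, MHC class I genes and the subunits of the immunoproteasome. EpCAM is a surface adhesion molecule of epithelial cells. Mammary epithelium has an inner luminal layer, which expresses Krt8 and Krt18, and an outer basal layer, which expresses Krt5, Krt14 and Trp63, and tumour cells can depart from both toward a mesenchymal state that makes matrix and proteases.

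The groups separated at the scale of the whole transcriptome. The first principal component of the 500 most variable genes held 86.5% of the variance and the second 2.21%. Correlations between libraries of log2 CPM, counts scaled to a common library size, ran from 0.962 to 0.979 within a group and from 0.901 to 0.936 between groups. Total counts ran from 26895429 to 37880702 in control and from 17559520 to 25601999 in depleted libraries, so the depths did not overlap. Between 18251 and 20135 features were detected per control library and between 17432 and 18596 per depleted library. Levels are given below in CPM as the range over the 6 libraries of a group with the median, and CPM is not divided by gene length, so levels of different genes are not compared. Fold changes are log2 values of control over depleted ± SE from edgeR's quasi-likelihood fit, positive where control was higher. Adjusted p-values are from that test with Benjamini-Hochberg adjustment over all tested features.

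Of 16637 tested features, 6658 differed between control and depleted cells, which is 40% of those tested. Of these, 3730 were higher in control cells (22.4%) and 2928 were lower (17.6%). At least a 2-fold difference was seen for 1876 higher features (11.3%) and 824 lower features (4.95%). The groups did not overlap for 3613 tested features (21.7%), with every control library above every depleted library for 2080 (12.5%) and below for 1533 (9.21%). The median log2 fold change of all tested features was 0.02. These percentages are the background against which the counts of the gene lists below are to be read.

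**Figure D1:**
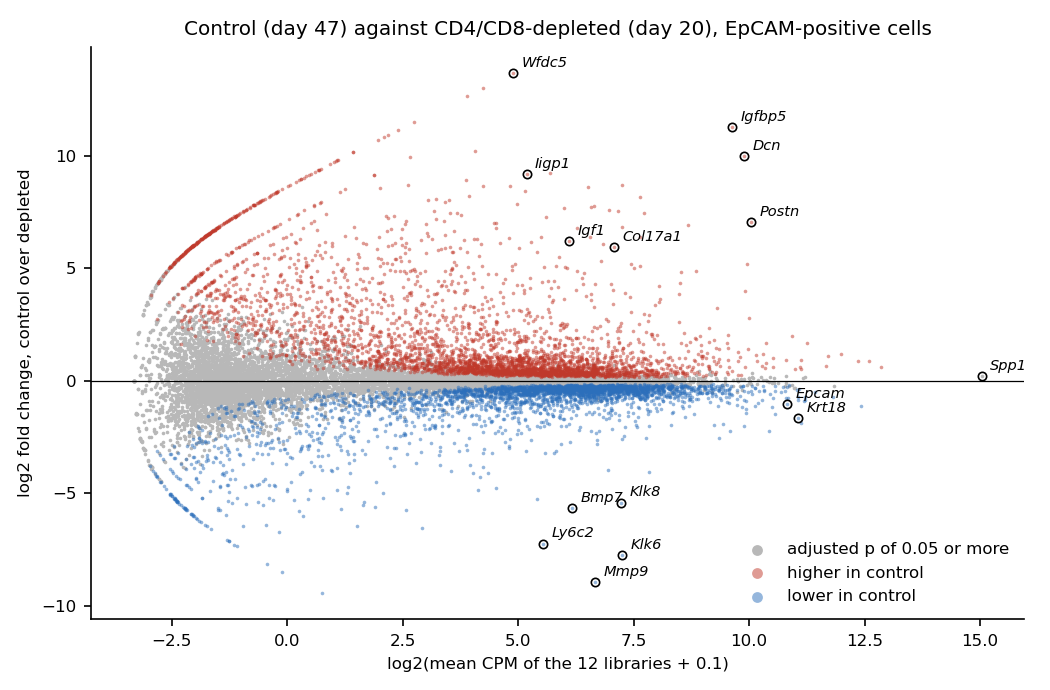
Log2 fold change of control over depleted EpCAM-positive cells (y axis) against log2 of the mean CPM of the 12 libraries plus 0.1 (x axis) for the 16637 tested features, coloured by whether the adjusted p was under 0.05 and by direction, with 15 genes circled. Igfbp5, Dcn and Postn stand above and Mmp9 and Klk6 below the bulk of features, Spp1 sits close to 0 at the highest level, and the curved edges at low levels are genes with no counts in 1 group.

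The markers of the sort were then checked. Epcam was detected in every library, with 815 to 1416 CPM (median 1233) in control and 2038 to 2705 CPM (median 2457) in depleted libraries, and was lower in control cells (log2 fold change -1.04 ± 0.27, adjusted p = 0.00279). The rat Neu transgene, listed as RatActivatedNeu, was likewise lower in control cells at -0.81 (adjusted p = 9.95e-05), and mouse Erbb2, which encodes Her2, was lower at -0.30 (adjusted p = 0.00836). The transgene and Erbb2 are near-identical in sequence, so reads may be split between them. Of 9 genes that mark the epithelial gate, 9 were tested, 7 were lower in control cells, 1 was higher and 1 did not pass. Cdh1, the E-cadherin of adherens junctions, had 777 to 849 CPM (median 788) in control and 789.6 to 1281 CPM (median 1015) in depleted libraries and did not pass at -0.39 (adjusted p = 0.0961). Cdh1 did pass, still lower in control cells, when the 12 EpCAM-positive libraries were fitted alone. Of the antigens excluded by the sort, Thy1, which encodes CD90, was not tested because of low counts. Ptprc, which encodes CD45, was at 0 to 1.82 CPM (median 0.688) in control and 1.87 to 9.91 CPM (median 3.47) in depleted libraries and was lower in control cells at -2.52 (adjusted p = 0.00526). Eng, which encodes CD105, was higher in control cells at 1.35 (adjusted p = 0.000245), with 1.5002 to 4.12 CPM (median 3.46) in control and 0.710 to 2.05 CPM (median 1.16) in depleted libraries.

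Markers of other cell types were measured in every library, since the RNA of a sorted population is a mixture in which fewer cells of a type and less RNA per cell cannot be told apart. Of 20 macrophage genes tested, 2 were higher and 7 lower in control cells, with summed levels of 143.8 to 319.5 CPM in control and 212.5 to 312.4 CPM in depleted libraries. Of 10 leukocyte genes, 1 was higher and 6 were lower, with sums of 14.4 to 29.5 CPM in control and 29.6 to 52.6 CPM in depleted libraries. Only 5 of 15 T cell markers had enough counts to be tested, and 2 were higher, with sums of 2.16 to 12.5 CPM in control and 0.488 to 1.61 CPM in depleted libraries. Among these markers Cd4 and Icos were at 0 in every control library, and Cd2, Cd247, Cd3e, Cd5, Cd8a, Cd8b1 and Icos were at 0 in every depleted library. At such depleted levels T cell markers passed the filter largely through other groups, so their direction was in part fixed by the filter. Of 13 fibroblast genes tested, 6 were higher and 0 lower, with sums of 1636.7 to 3869.7 CPM in control and 623.5 to 839.0 CPM in depleted libraries. Of 9 pericyte and smooth muscle genes, 5 were higher and 2 lower, with sums of 421.1 to 912.9 CPM in control and 104.5 to 202.7 CPM in depleted libraries. Of 15 endothelial genes, 6 were higher and 1 was lower, with sums of 21.4 to 80.9 CPM in control and 37.6 to 73.7 CPM in depleted libraries. Only 4 of 10 B and plasma cell markers had enough counts to be tested, and all 4 were higher. Every control library lay above every depleted library for 1 of them. The sums were 1.15 to 10.3 CPM in control and 0.0388 to 0.444 CPM in depleted libraries. At such depleted levels these genes could pass the filter only through other groups, so their direction was largely fixed by the filter. Of 8 neutrophil genes, 0 were higher and 2 lower, with sums of 2.51 to 4.51 CPM in control and 8.98 to 17.6 CPM in depleted libraries and a mean of 31.2 CPM in the cultured line. The 1 tested gene of mast cells and basophils was lower, with list sums of 0 to 0.314 CPM in control and 10.6 to 18.6 CPM in depleted libraries and a mean of 11.1 CPM in culture. Of 7 erythroid and platelet genes, 1 was higher and 3 were lower, with sums of 1.88 to 7.96 CPM in control and 8.10 to 23.5 CPM in depleted libraries. Of 7 skeletal muscle genes, 1 was lower, with sums of 10.7 to 18.5 CPM in control and 41.7 to 83.8 CPM in depleted libraries. For these 5 lists the sums did not overlap between the groups, whereas those of dendritic cells did, with 80.3 to 106 CPM in control and 83.7 to 121 CPM in depleted libraries. The sums also overlapped for natural killer cells, at 0.0658 to 0.879 CPM in control and 0.0557 to 0.675 CPM in depleted libraries, and for adipocytes, at 7.19 to 22.4 CPM in control and 8.96 to 13.2 CPM in depleted libraries.

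Genes induced by interferon-gamma were higher in control cells. Of 14 tested members of the interferon-gamma-induced GTPase list, which covers the guanylate-binding proteins and the immunity-related GTPases that attack vacuoles of intracellular pathogens, 13 were higher, 0 were lower and 1 did not pass. Of the 14, 2 had no counts in depleted libraries. These 2 could pass the filter only through other groups, so their direction was largely fixed by the filter. The median log2 fold change of the 14 GTPases was 2.45, against 0.02 for all tested features. The promoters of 4 of these genes, of the antiviral gene Ifit3 and of B2m are shown because they carry the ISRE letters GAAANNGAAA, written in capitals, or the reverse complement on the printed strand. Each stretch of 100 bases ends at the base before the start of transcription, except that of B2m, which ends 60 bases before it, and that of Ifit3, which ends 70 bases before it. Sequences and starts are from RefSeq on GRCm38.p6.
Gbp2, chr3:142620563-142620662, plus strand: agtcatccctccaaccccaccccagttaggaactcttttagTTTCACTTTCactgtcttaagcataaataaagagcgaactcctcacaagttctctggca
Gbp3, chr3:142559944-142560043, plus strand: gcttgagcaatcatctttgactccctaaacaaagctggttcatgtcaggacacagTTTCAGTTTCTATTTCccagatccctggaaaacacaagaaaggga
Gbp7, chr3:142530236-142530335, plus strand: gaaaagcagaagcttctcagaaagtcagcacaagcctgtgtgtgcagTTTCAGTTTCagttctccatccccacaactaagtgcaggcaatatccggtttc
Igtp, chr11:58199456-58199555, plus strand: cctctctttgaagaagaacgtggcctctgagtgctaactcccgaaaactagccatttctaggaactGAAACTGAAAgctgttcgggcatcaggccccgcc
Ifit3, chr19:34583359-34583458, plus strand: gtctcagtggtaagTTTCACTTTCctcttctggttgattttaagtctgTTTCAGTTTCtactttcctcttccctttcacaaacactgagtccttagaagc
B2m, chr2:122147527-122147626, plus strand: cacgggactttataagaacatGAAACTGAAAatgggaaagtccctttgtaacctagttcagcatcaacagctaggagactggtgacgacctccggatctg
The letters were searched on both strands in the 250 bases before each start, and matches may overlap, as in Gbp3. Of 16 GTPase genes, 9 had a promoter in the table and 9 of these held the ISRE letters, which 3.46% of all 27025 genes with a promoter hold. The GAS letters TTCNNNGAA, also on both strands, were held by 6 of the 9 and by 8.13% of all genes. A match is a description of the letters and not evidence of binding in these cells.

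Irf1, a transcription factor induced by interferon-gamma, was at 132 to 260.3 CPM (median 196) in control and 58.5 to 86.8 CPM (median 67.9) in depleted libraries (log2 fold change 1.503 ± 0.16, adjusted p = 3.56e-08). For this factor every control library lay above every depleted library. Of 16 tested genes for interferon receptors and JAK-STAT signalling, 10 were higher, 2 were lower and 4 did not pass. Both receptor chains were higher, Ifngr1 at 0.41 (adjusted p = 0.000203) and Ifngr2 at 0.72 (adjusted p = 8.76e-07), and so was Socs3, a feedback inhibitor of the kinases, at 1.90 (adjusted p = 7.90e-10).

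Among the GTPases, Iigp1 had 23.9 to 169 CPM (median 63.0) in control and 0 to 0.415 CPM (median 0.0666) in depleted libraries. Depleted libraries held so few Iigp1 counts that the ratio of summed levels, 624-fold, with a counting interval of 378 to 1115 (counting error only), describes it better than the fitted value of 9.17, which became 9.99 without depleted library 6. Igtp had 42.9 to 95.2 CPM (median 61.6) in control and 7.50 to 14.2 CPM (median 10.7) in depleted libraries (log2 fold change 2.58 ± 0.22, adjusted p = 5.77e-10). Gbp2 had 62.3 to 146 CPM (median 109) in control and 21.5 to 42.3 CPM (median 26.4) in depleted libraries (log2 fold change 1.88 ± 0.18, adjusted p = 3.94e-09). The groups did not overlap for any of these genes, nor for Gbp3 at 2.83 (adjusted p = 9.51e-11) or Gbp7 at 1.91 (adjusted p = 6.14e-11). All 13 called GTPases were highest in the same library, control 1. The summed GTPase level was 757.9 CPM in control 1 and 307.5 to 520.1 CPM in the other 5 control libraries, against 106.5 to 128.3 CPM in depleted libraries. Without control 1, 12 GTPases were called higher.

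MHC class I presents peptides of the cell's own proteins to CD8 T cells, and the immunoproteasome cuts those peptides. Of 19 tested MHC class I and peptide-loading genes, 15 were higher in control cells, 3 were lower and 1 did not pass, with a median log2 fold change of 0.86. B2m, the light chain of every class I molecule, was at 422 to 1300.3 CPM (median 714) in control and 266 to 387 CPM (median 328) in depleted libraries (log2 fold change 1.24 ± 0.18, adjusted p = 5.62e-06). The B2m groups did not overlap. The heavy chain H2-K1 was at 509 to 1452 CPM (median 823) in control and 401 to 490.2 CPM (median 448) in depleted libraries (log2 fold change 0.97 ± 0.17, adjusted p = 4.81e-05), and H2-D1 passed at 0.93 (adjusted p = 0.000121) although its groups overlapped. The peptide transporter chains Tap1 and Tap2 were higher at 0.86 (adjusted p = 5.26e-05) and 0.96 (adjusted p = 3.31e-08), and the loading factor Tapbp at 0.57 (adjusted p = 2.34e-07). The 3 lower members were general chaperones of the endoplasmic reticulum, Calr, Canx and Pdia3, of which Calr was named after its value was seen. Heavy chain genes have close copies, so reads of the other H2 genes may be split among them, and the treatment of such reads in the counting is not stated. Of the immunoproteasome list, Psmb8 was at 65.8 to 144 CPM (median 85.2) in control and 9.27 to 17.7 CPM (median 12.4) in depleted libraries (log2 fold change 2.81 ± 0.21, adjusted p = 4.12e-11), Psmb9 was higher at 1.87 (adjusted p = 2.97e-08) and Psmb10 at 0.81 (adjusted p = 2.60e-05). The activator subunit Psme1 was lower at -0.28 (adjusted p = 0.00166), and Psme2 did not pass at -0.15 (adjusted p = 0.143). Of the 15 called class I members, 12 were highest in control library 1, and 14 were called higher without it. The ISRE letters were found in the promoters of 3 of 15 class I genes and 0 of 5 immunoproteasome genes. These counts include Calr, Canx, Pdia3 and Psme1, which were lower, and Psme2, which did not pass. Most genes of both lists thus lacked these letters in the window searched.

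Antiviral interferon-stimulated genes, which both interferon types induce, were also higher. Of 30 tested, 20 were higher, 0 were lower and 10 did not pass, with a median log2 fold change of 1.68. Isg15, a ubiquitin-like modifier, was at 12.6 to 17.3 CPM (median 15.5) in control and 1.61 to 4.36 CPM (median 3.14) in depleted libraries (log2 fold change 2.33 ± 0.23, adjusted p = 1.12e-08). Ifit3, which takes part in the recognition of viral RNA, was at 1.55 to 5.99 CPM (median 4.23) in control and 0.208 to 0.582 CPM (median 0.490) in depleted libraries (log2 fold change 3.20 ± 0.33, adjusted p = 1.97e-08). Zbp1, a sensor of nucleic acid, was at 44.2 to 64.2 CPM (median 55.5) in control and 10.3 to 18.7 CPM (median 15.2) in depleted libraries (log2 fold change 1.85 ± 0.13, adjusted p = 1.16e-11). No control library overlapped the depleted libraries for these genes. Unlike the GTPases, only 1 of the 20 called antiviral genes was highest in control library 1, while 7 were highest in control 3 and 7 in control 4. The ISRE letters were found in 8 of 20 antiviral genes with a promoter in the table.

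**Figure D2:**
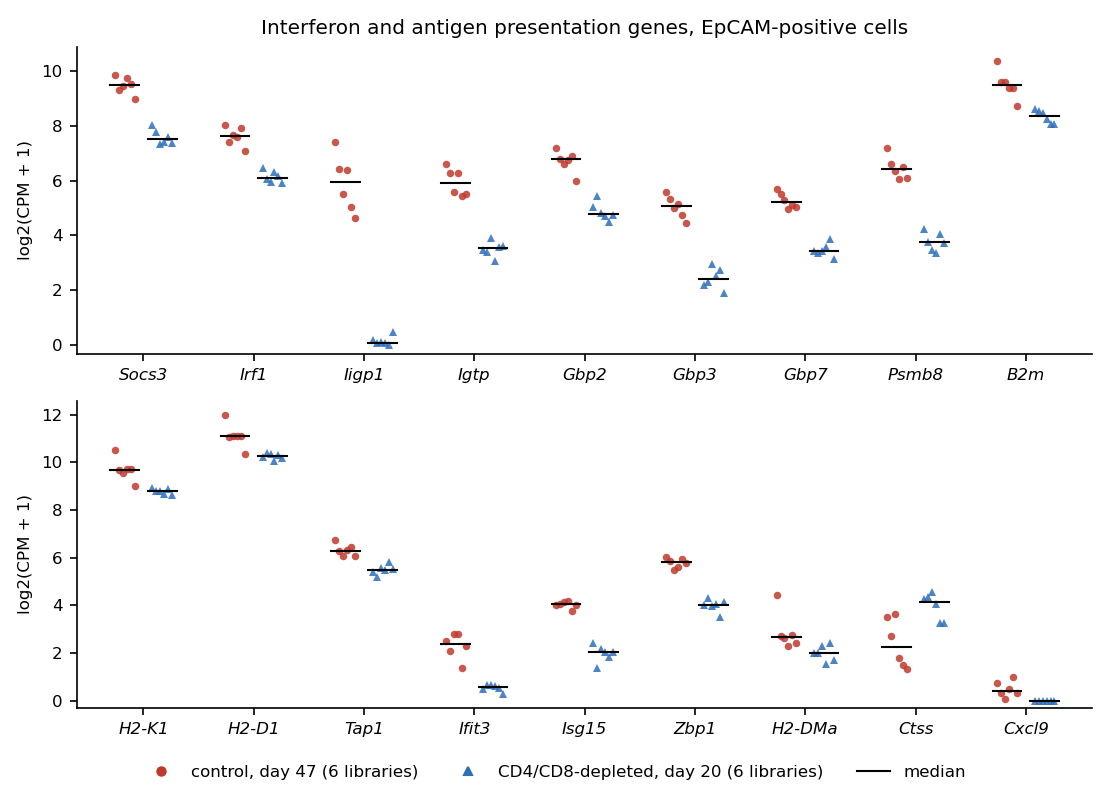
Levels of 18 interferon and antigen presentation genes as log2 of CPM plus 1 (y axis), with 1 point per library, circles for the 6 control and triangles for the 6 depleted libraries, and a bar at the median. The groups are apart for Irf1, the GTPases, Psmb8 and B2m, control library 1 (first circle of each gene) is the highest for Iigp1, B2m and H2-DMa, and the groups overlap for H2-D1, H2-DMa and Ctss.

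MHC class II genes, which present taken-up antigen to CD4 T cells and are expressed mainly by antigen-presenting cells, followed another pattern. Of 10 tested, 3 were higher in control cells, 1 was lower and 6 did not pass. The summed level was 473.7 CPM in control library 1, 44.9 to 108.1 CPM in the other control libraries and 66.8 to 164.7 CPM in depleted libraries. H2-DMa, a peptide-exchange chain, was higher at 1.30 (adjusted p = 0.0108), but without control library 1 its log2 fold change was 0.67 and no longer passed (adjusted p = 0.104). Ctss, a protease of antigen-presenting cells, was lower at -1.49 (adjusted p = 0.00716). The part of macrophage, leukocyte and dendritic cell RNA in these values was not tested; their summed marker levels are given above, and of 6 dendritic cell genes tested 2 were higher and 2 lower.

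Chemokines and immune ligands moved in both directions. Of 26 tested chemokines, 9 were higher, 4 were lower and 13 did not pass. Cxcl9, an interferon-gamma-induced chemokine for T cells, was at 0.0593 to 0.970 CPM (median 0.315) in control libraries and at 0 in all depleted libraries, at least 18.2-fold higher against a floor of 3 counts over the group. Cxcl10, its close relative, was higher at 2.67 (adjusted p = 0.00914) with overlapping groups, and at 3.90 without depleted library 2. Cx3cl1, a membrane-bound chemokine, was at 982 to 2412 CPM (median 1778) in control and 219 to 319.8 CPM (median 247) in depleted libraries (log2 fold change 2.79 ± 0.18, adjusted p = 4.26e-12). Among lower genes Ppbp, a neutrophil chemoattractant, was at -4.66 (adjusted p = 1.74e-06), and at -5.64 without control library 2.

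Of 16 tested genes for inhibitory immune ligands, 7 were higher, 4 were lower and 5 did not pass. Cd274, which encodes PD-L1, was at 0.314 to 3.06 CPM (median 1.216) in control and 0.223 to 1.29 CPM (median 0.304) in depleted libraries and did not pass at 1.49 (adjusted p = 0.0798). It did pass when control library 6 or depleted library 4 was left out, with log2 fold changes of 1.70 and 1.94. Ceacam1, a ligand of inhibitory receptors, was at 14.4 to 27.3 CPM (median 24.6) in control and 0 to 0.814 CPM (median 0.325) in depleted libraries (log2 fold change 5.95 ± 0.70, adjusted p = 1.68e-07). Cd200, which restrains myeloid cells, was at 1022 to 1288 CPM (median 1231) in control and 282 to 316 CPM (median 292) in depleted libraries (log2 fold change 2.03 ± 0.09, adjusted p = 7.23e-15). Lgals9, which encodes galectin-9, was higher at 1.61 (adjusted p = 2.05e-10), whereas Lgals1, which encodes galectin-1, was lower at -1.48 (adjusted p = 6.06e-08), and Nt5e, which makes adenosine, was lower at -1.01 (adjusted p = 1.56e-09). Among 14 tested ligands and resistance genes of cytotoxic cells, 5 were higher and 4 were lower. Ulbp1, a ligand of the NKG2D receptor, was lower at -2.32 (adjusted p = 6.38e-06), Tnfrsf10b, the receptor of TRAIL, at -1.23 (adjusted p = 1.45e-08) and Casp8, the caspase it activates, at -0.60 (adjusted p = 3.45e-08).

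Cytokine genes were divided, with 8 higher, 9 lower and 4 not passing of 21 tested. Il33, an alarmin, was at 243 to 435 CPM (median 311) in control and 16.4 to 37.3 CPM (median 24.9) in depleted libraries (log2 fold change 3.70 ± 0.20, adjusted p = 1.94e-13). Tgfb2 was higher at 3.002 (adjusted p = 2.63e-06), whereas Tgfb1 did not pass at 0.23 (adjusted p = 0.0807). Among lower genes Tslp, an epithelial cytokine that acts on dendritic cells, was at -5.29 (adjusted p = 3.03e-07) and Csf2, a growth factor of myeloid cells, at -2.78 (adjusted p = 5.37e-05). Csf1, the macrophage growth factor, was lower at -0.40 (adjusted p = 0.0259), a call that was lost without control library 2 (log2 fold change -0.39), control 6 (-0.34), depleted 2 (-0.37) or depleted 5 (-0.35). Vegfa, the main angiogenic factor, did not pass at 0.05 (adjusted p = 0.781).

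Several abundant genes for matrix and secreted proteins were higher in control cells. Of 33 tested collagen and matrix genes, 18 were higher in control cells, 6 were lower and 9 did not pass, with a median log2 fold change of 1.62. Dcn, the collagen-binding proteoglycan decorin, was at 781 to 2346 CPM (median 2041) in control and 0 to 5.96 CPM (median 1.46) in depleted libraries (log2 fold change 9.98 ± 0.53, adjusted p = 1.63e-13), and at 10.71 without depleted library 2. Postn, the matricellular protein periostin, was at 1609 to 2859.8 CPM (median 2025) in control and 11.050 to 27.2 CPM (median 13.3) in depleted libraries (log2 fold change 7.06 ± 0.26, adjusted p = 1.59e-16). Igfbp5, a secreted binding protein of insulin-like growth factors, was at 772 to 2370.3 CPM (median 1653) in control and 0.0388 to 2.34 CPM (median 0.0783) in depleted libraries (log2 fold change 11.27 ± 0.74, adjusted p = 5.81e-12), and at 12.26 without depleted library 6. For these 3 genes every control library lay above every depleted library. The chain genes Col1a1, Col6a1 and Col8a1 were higher at 3.51 (adjusted p = 7.09e-08), 4.82 (adjusted p = 7.93e-12) and 3.21 (adjusted p = 1.16e-10). Among lower genes Col18a1, a collagen of basement membranes, was at 2955 to 3792 CPM (median 3413) in control and 6331 to 9401 CPM (median 7184) in depleted libraries (log2 fold change -1.15 ± 0.09, adjusted p = 1.71e-10), and Fbln2, a fibulin of elastic fibres, at -0.74 (adjusted p = 8.64e-06). Spp1, which encodes osteopontin and held 3.57% of control and 3.15% of depleted counts, did not pass at 0.21 (adjusted p = 0.289).

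The fibroblast and pericyte sums given above were also higher in control libraries, and their part in the matrix result was not tested. Of the 15 fibroblast genes 9, and of the 11 pericyte genes 4, are also members of other lists, so the sums are not independent of those lists. Without Dcn the fibroblast sum was 856.1 to 1540.9 CPM in control and 622.4 to 833.1 CPM in depleted libraries. Pdgfra, a receptor of fibroblasts, was at 65.0 to 119 CPM (median 84.2) in control and 19.4 to 36.0 CPM (median 30.1) in depleted libraries (log2 fold change 1.61 ± 0.17, adjusted p = 1.81e-08), and Pdgfrb, a receptor of pericytes, at 234 to 472 CPM (median 445) in control and 0.853 to 2.79 CPM (median 1.23) in depleted libraries (log2 fold change 8.15 ± 0.31, adjusted p = 2.84e-16). Among fibroblast genes, Col3a1 and Col1a2, named after their values were seen, did not pass, and Lum, which encodes lumican, was higher at 2.05 (adjusted p = 0.00912), or at 2.71 without depleted library 2. Thy1, the fibroblast antigen CD90 used to exclude stromal cells, stayed below the count needed for testing. In EpCAM-negative cells the same contrast gave 7.67 for Dcn, 5.27 for Postn and 9.43 for Igfbp5.

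The IGF axis and secreted regulators also contained large differences. Igf1, a growth factor usually made by stroma, was at 93.4 to 201 CPM (median 127) in control and 0.347 to 5.95 CPM (median 0.986) in depleted libraries (log2 fold change 6.18 ± 0.44, adjusted p = 2.55e-11), and at 7.09 without depleted library 5. Igfbp3 was higher at 3.07 (adjusted p = 2.95e-11), and in all 6 of 17 tested IGF-axis genes were higher and 3 lower. Irs2, an adaptor of the insulin and IGF receptors, was higher at 2.01 (adjusted p = 6.89e-07), whereas Irs1 was lower at -1.08 (adjusted p = 1.32e-06).

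Proteases and their inhibitors divided by gene. Of 26 tested metalloproteases, plasminogen activators and inhibitors, 9 were higher, 11 were lower and 6 did not pass. Mmp9, a gelatinase, was at 0 to 1.21 CPM (median 0.279) in control and 137 to 322 CPM (median 200.2) in depleted libraries (log2 fold change -8.94 ± 0.51, adjusted p = 5.04e-13), and at -9.69 without control library 5. Mmp3, stromelysin 1, was at 326 to 892 CPM (median 552) in control and 971 to 1599.6 CPM (median 1282) in depleted libraries (log2 fold change -1.15 ± 0.24, adjusted p = 0.000424). Mmp2, the other gelatinase, was higher at 3.53 (adjusted p = 4.51e-09), as were Adamts1 at 3.87 (adjusted p = 1.13e-11) and Adamts5 at 5.96 (adjusted p = 1.17e-09), 2 proteoglycan-cutting enzymes, the last at 6.71 without depleted library 4. Timp3, a matrix-bound inhibitor of these enzymes, was at 601 to 919 CPM (median 659.7) in control and 25.3 to 41.0 CPM (median 35.4) in depleted libraries (log2 fold change 4.35 ± 0.15, adjusted p = 1.06e-16). Klk6, a secreted serine protease of the kallikrein family, was at 0 to 4.24 CPM (median 1.27) in control and 172 to 470.0 CPM (median 286) in depleted libraries (log2 fold change -7.76 ± 0.54, adjusted p = 1.87e-11), and at -8.47 without control library 2. Klk8 was at 2.47 to 13.6 CPM (median 7.11) in control and 214 to 340.4 CPM (median 314) in depleted libraries (log2 fold change -5.42 ± 0.51, adjusted p = 3.82e-09), with a mean of 415 CPM in culture. The mean of Mmp9 in culture was 0.916 CPM.

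Epithelial identity shifted among genes rather than in 1 direction. Of 16 tested keratins, 11 were higher in control cells, 4 were lower and 1 did not pass, with a median log2 fold change of 1.97. Among the keratins that were lower, Krt18, a keratin of simple epithelia, was at 834 to 1157 CPM (median 1048) in control and 2982 to 3511 CPM (median 3239) in depleted libraries (log2 fold change -1.68 ± 0.12, adjusted p = 4.02e-11). Krt7 was at 557 to 1239 CPM (median 1024) in control and 2980.0 to 3836 CPM (median 3609) in depleted libraries (log2 fold change -1.87 ± 0.46, adjusted p = 0.00203), and Krt8, the partner of Krt18, was lower at -1.16 (adjusted p = 2.86e-08). The basal keratin Krt14 was at 2612 to 3259.8 CPM (median 2896) in control and 1398 to 1793 CPM (median 1453) in depleted libraries (log2 fold change 0.94 ± 0.15, adjusted p = 1.44e-05), and Krt6a, a keratin of wounded and hair-follicle epithelium, was at 109.7 to 140.0 CPM (median 127) in control and 2.25 to 6.17 CPM (median 3.36) in depleted libraries (log2 fold change 5.04 ± 0.38, adjusted p = 8.98e-11). For these 4 genes the groups did not overlap. Krt17 was higher at 3.19 (adjusted p = 6.81e-09), and Krt19 at 5.32 (adjusted p = 2.44e-05), or 6.23 without depleted library 4.

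Most tested genes of the basal list and of the luminal list were higher in control cells, whereas the summed level of the luminal list was lower. Of 18 tested basal genes, 12 were higher and 3 lower, with a median of 2.08. Of 23 tested luminal genes, 16 were higher and 5 lower, with a median of 2.39. Every control library lay above every depleted library for 10 basal and 9 luminal genes. Of the tested luminal genes, 5 had no counts in 1 group, among them milk protein genes at 0 in depleted libraries. Such genes could pass the filter only through other groups. The luminal sum was 3486 to 5509 CPM in control and 7186 to 8420.4 CPM in depleted libraries, with no overlap, and the basal sum was 5919 to 6446 CPM in control and 5191 to 6075 CPM in depleted libraries, with overlap. Trp63, the basal master regulator, was at 118 to 185 CPM (median 176) in control and 22.3 to 39.2 CPM (median 33.2) in depleted libraries (log2 fold change 2.39 ± 0.18, adjusted p = 6.33e-11). Acta2, smooth muscle actin of myoepithelium, was at 18.2 to 104 CPM (median 36.8) in control and 1.16 to 4.48 CPM (median 3.26) in depleted libraries (log2 fold change 3.95 ± 0.50, adjusted p = 5.76e-07). Sox10, a factor of basal progenitors and nerve sheath, was at 0 to 2.52 CPM (median 0.927) in control libraries and at 0 in all depleted libraries, at least 42.1-fold higher in summed level against a floor of 3 counts over the group (adjusted p = 0.000856). Elf5, a regulator of alveolar cells, was higher at 2.39 (adjusted p = 7.18e-06), and the milk protein gene Csn3 at 4.57 (adjusted p = 6.83e-07). Areg, the growth factor of luminal cells, was lower at -1.43 (adjusted p = 4.93e-06), and Procr, a marker of basal stem cells, at -2.77 (adjusted p = 7.05e-10). Acta2 and Pdgfrb are also in the pericyte list, and Sox10 is in the Schwann cell list, of which 3 of 7 tested genes were higher and 1 was lower.

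Junction genes were more often lower. Of 32 tested genes of epithelial junctions and their regulators, 6 were higher, 12 were lower and 14 did not pass, with a median of -0.38. Ocln, a tight junction protein, was at 2.52 to 9.94 CPM (median 8.39) in control and 33.2 to 47.2 CPM (median 35.6) in depleted libraries (log2 fold change -2.33 ± 0.28, adjusted p = 2.60e-07), Pard6b, a polarity factor, was lower at -2.07 (adjusted p = 1.24e-05) and Cldn3, a claudin, at -0.78 (adjusted p = 0.00148). Ehf, an epithelial ETS factor, was higher at 4.31 (adjusted p = 3.92e-10), and Grhl1, a grainyhead factor, at 1.85 (adjusted p = 1.45e-05). Of 20 desmosome and hemidesmosome genes, 3 were higher and 8 lower. Col17a1, the transmembrane collagen of hemidesmosomes, was at 207 to 322 CPM (median 262) in control and 1.73 to 8.15 CPM (median 4.34) in depleted libraries (log2 fold change 5.92 ± 0.30, adjusted p = 5.32e-14), whereas the laminin chain gene Lama3 was at 186 to 272 CPM (median 257) in control and 683 to 1253 CPM (median 948) in depleted libraries (log2 fold change -1.96 ± 0.28, adjusted p = 2.99e-06). The integrin chain Itgb4 was lower at -0.92 (adjusted p = 8.97e-08). Col17a1 and Lama3 thus differed in opposite directions, and for both the groups did not overlap.

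**Figure D3:**
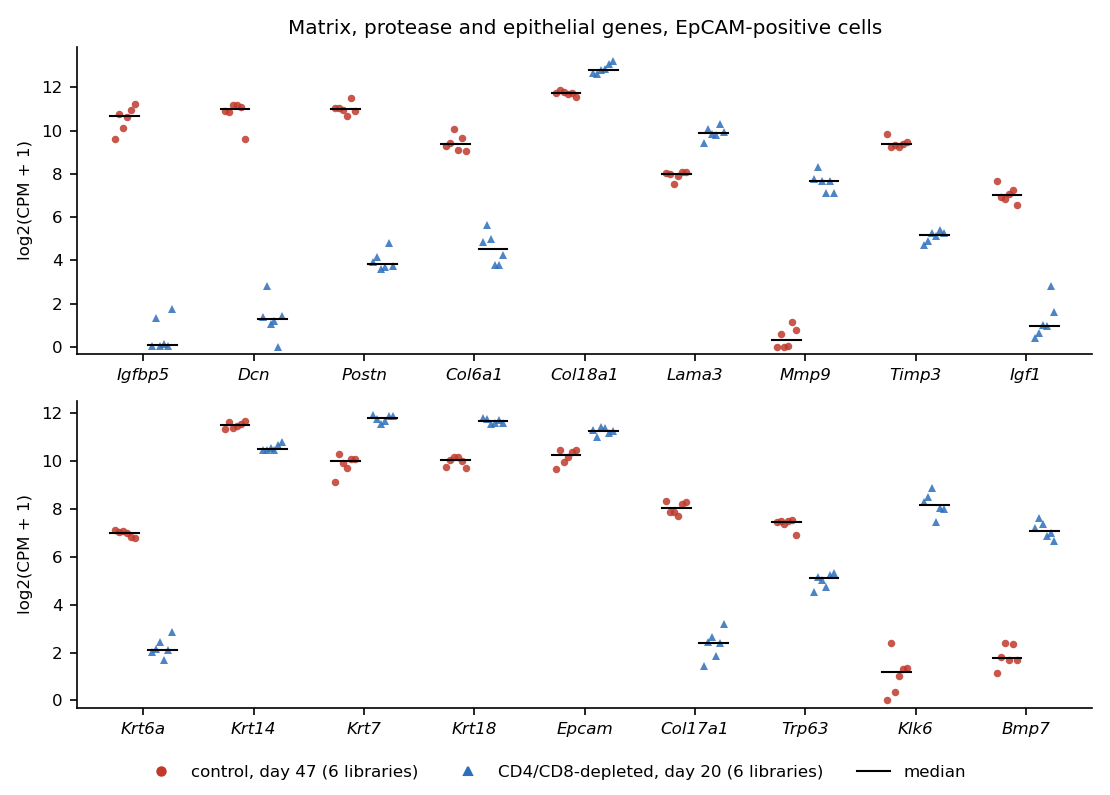
Levels of 18 matrix, protease and epithelial genes as log2 of CPM plus 1 (y axis), with 1 point per library, circles for the 6 control and triangles for the 6 depleted libraries, and a bar at the median. Igfbp5, Dcn and Postn are near the bottom in depleted and near the top in control libraries, Mmp9, Klk6 and Bmp7 show the opposite order, and Krt7, Krt18 and Epcam are lower in control while Krt6a, Krt14 and Trp63 are higher.

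Of 15 tested transcription factors of epithelial-mesenchymal transition, 8 were higher in control cells, 0 were lower and 7 did not pass, with a median of 0.78. Zeb1 was at 15.7 to 32.9 CPM (median 24.4) in control and 1.45 to 7.41 CPM (median 4.73) in depleted libraries (log2 fold change 2.46 ± 0.23, adjusted p = 4.31e-09). Snai2 was at 13.9 to 24.8 CPM (median 18.3) in control and 2.57 to 6.17 CPM (median 3.53) in depleted libraries (log2 fold change 2.31 ± 0.29, adjusted p = 4.87e-07), and Foxc1 was higher at 1.27 (adjusted p = 2.58e-10). The mesenchymal list did not move as a whole, with 11 higher, 9 lower and 9 not passing of 29 tested and a median of -0.15. Vim, the intermediate filament of mesenchymal cells, was at 880.1 to 1486 CPM (median 1051) in control and 1032 to 1504 CPM (median 1197) in depleted libraries and did not pass at -0.15 (adjusted p = 0.289). Fn1, fibronectin, was higher at 0.60 (adjusted p = 0.00285) and Fbn1, fibrillin, at 3.70 (adjusted p = 3.03e-09), whereas Cd44, the hyaluronan receptor, was lower at -1.09 (adjusted p = 2.02e-12).

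Mitotic genes were lower in control cells. Of 30 tested, 0 were higher, 24 were lower and 6 did not pass, with a median log2 fold change of -0.97. Ccnb2, a cyclin of mitosis, was at 16.9 to 43.9 CPM (median 27.6) in control and 80.8 to 119.9 CPM (median 92.6) in depleted libraries (log2 fold change -1.69 ± 0.19, adjusted p = 6.70e-08). Ckap2, a spindle protein, was at 16.4 to 36.0 CPM (median 26.4) in control and 83.4 to 124 CPM (median 106) in depleted libraries (log2 fold change -1.996 ± 0.20, adjusted p = 1.47e-08). Neither gene overlapped between groups, whereas Mki67, the common proliferation marker, overlapped with 17.7 to 55.9 CPM (median 38.3) in control and 54.8 to 96.3 CPM (median 65.6) in depleted libraries (log2 fold change -0.90 ± 0.24, adjusted p = 0.00374). The summed level of the list was 483.8 to 1257.5 CPM in control and 1719.8 to 2229.6 CPM in depleted libraries. The Ccnb2 promoter, the 120 bases before the start from RefSeq on GRCm38.p6, is printed because it holds the CCAAT box, marked in capitals, in 3 places.
Ccnb2, chr9:70421555-70421674, minus strand: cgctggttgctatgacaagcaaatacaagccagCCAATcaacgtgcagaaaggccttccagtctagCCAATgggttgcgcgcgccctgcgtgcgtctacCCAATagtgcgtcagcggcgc
The letters CCAAT, on either strand of the 250 bases before the start, were found in 20 of 26 mitotic genes with a promoter in the table and in 37.5% of all genes, and the CHR letters TTTGAA in 10 of 26 and in 18.3% of all genes. Neither was particular to the mitotic list. CCAAT was also found in 14 of 15 class I, 6 of 20 antiviral, 2 of 9 GTPase and 1 of 5 immunoproteasome genes. The CHR letters were found in 4 of 9 GTPase, 2 of 20 antiviral, 1 of 15 class I and 0 of 5 immunoproteasome genes.

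Replication genes were lower by less. Of 30 tested, 0 were higher, 16 were lower and 14 did not pass, with a median of -0.46. Mcm2, a subunit of the replicative helicase, was lower at -0.71 (adjusted p = 5.52e-05), and Lig1, the replicative ligase, at -0.97 (adjusted p = 6.39e-06). Ribosomal protein genes were lower in 21 of 33 tested and higher in 0, with a median of -0.43, for example Rpl32 at -0.70 (adjusted p = 6.32e-05). Of 20 tested p53 targets and cell cycle inhibitors, 2 were higher and 11 were lower. Ccng1 was lower at -1.41 (adjusted p = 1.79e-09), Mdm2 at -1.03 (adjusted p = 8.52e-08), and Trp53 itself at -0.46 (adjusted p = 1.27e-05), whereas the cell cycle inhibitor Cdkn1a did not pass at -0.14 (adjusted p = 0.423) and Sesn1 was higher at 1.82 (adjusted p = 2.40e-07).

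Genes of the immediate-early response, which are induced within minutes by growth factors and by tissue dissociation, were higher in 24 of 29 tested and lower in 1, with a median of 1.14. Fos was at 4193 to 6607 CPM (median 5828) in control and 1997 to 3025 CPM (median 2526) in depleted libraries (log2 fold change 1.19 ± 0.15, adjusted p = 3.20e-07). Nr4a1, a nuclear receptor of this response, was at 130.3 to 343 CPM (median 270.1) in control and 9.91 to 45.7 CPM (median 19.6) in depleted libraries (log2 fold change 3.42 ± 0.38, adjusted p = 6.64e-08). Ier3 was higher at 1.69 (adjusted p = 1.17e-08), and Ccn1 and Ccn2, targets of Yap signalling, at 1.69 (adjusted p = 6.20e-08) and 1.87 (adjusted p = 7.78e-08). Of the 24 called genes, 14 were highest in control library 1, the library that was also highest for the GTPases, and 23 were called higher without it. All tumours were digested enzymatically, and the part of digestion in these values was not tested.

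NF-kB feedback genes moved the same way, with 10 higher and 2 lower of 18 tested. Nfkbia, the inhibitor that NF-kB induces, was at 228 to 547 CPM (median 382) in control and 49.7 to 89.6 CPM (median 57.9) in depleted libraries (log2 fold change 2.63 ± 0.25, adjusted p = 4.89e-09), and Nfkbiz was higher at 2.10 (adjusted p = 2.14e-09). Of 23 tested genes of the unfolded protein and amino acid responses, 4 were higher and 14 were lower. Asns, which makes asparagine, was at 6.59 to 16.7 CPM (median 11.3) in control and 40.0 to 76.3 CPM (median 48.4) in depleted libraries (log2 fold change -2.20 ± 0.31, adjusted p = 2.80e-06), and the chaperone Hsp90b1 was lower at -0.76 (adjusted p = 6.74e-10). Among heat shock genes 5 of 13 were higher and 3 lower, with Hspb1 at 1.18 (adjusted p = 6.22e-05) and Hsp90aa1 at -0.86 (adjusted p = 9.37e-07). Nqo1, a target of NRF2, was higher at 4.93 (adjusted p = 0.000297), or at 5.75 without depleted library 3, while Nfe2l2, which encodes NRF2, was lower at -0.61 (adjusted p = 5.37e-07).

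Growth factor pathways were divided as well. Of 18 tested ErbB receptor and ligand genes, 4 were higher and 7 were lower, with Egfr at 1.47 (adjusted p = 3.65e-09). Bmp7, a ligand of the BMP branch of the TGF-beta family, was at 1.23 to 4.30 CPM (median 2.39) in control and 101 to 196 CPM (median 136) in depleted libraries (log2 fold change -5.66 ± 0.30, adjusted p = 1.72e-13). Bmp2, another ligand of that branch, was higher at 5.96 (adjusted p = 5.52e-07), or at 8.47 without depleted library 3, and the BMP and TGF-beta target Id2 at 2.65 (adjusted p = 1.06e-10). Of 26 tested genes of that family, 9 were higher and 6 were lower. Of 21 tested Wnt pathway genes, 11 were higher and 4 lower, with Wnt5b at 6.16 (adjusted p = 3.20e-14), the stem cell receptor Lgr5 at 5.33 (adjusted p = 4.61e-08), the secreted inhibitor Sfrp1 at 4.02 (adjusted p = 1.80e-08) and the cyclin Ccnd1 at -0.997 (adjusted p = 1.71e-10). Of 15 Notch pathway genes, 5 were higher and 4 lower, with the target Hey1 at 4.31 (adjusted p = 5.72e-09) and the receptors Notch1 and Notch3 at -0.75 (adjusted p = 1.47e-05) and -1.59 (adjusted p = 0.0145). The background for these counts is 22.4% higher and 17.6% lower.

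Metabolic lists differed in the share of tested genes that were called, against 40% of all tested features. The share was 65% for hypoxia, 58.8% for lipid, 54.5% for arginine and tryptophan and 50% for glycolysis genes. It was 39.3% for nuclear genes of the respiratory chain and 35% for cholesterol synthesis. Nos2, which makes nitric oxide from arginine, was at 16.1 to 130.0 CPM (median 50.3) in control and 2.22 to 4.41 CPM (median 2.98) in depleted libraries (log2 fold change 4.24 ± 0.59, adjusted p = 2.02e-06). Slc7a2, an arginine transporter, was at 155 to 331 CPM (median 214) in control and 2.18 to 8.48 CPM (median 5.19) in depleted libraries (log2 fold change 5.34 ± 0.26, adjusted p = 2.07e-14), and Arg1, which breaks arginine down, was higher at 1.73 (adjusted p = 0.000336). Ido1, the interferon-induced enzyme of tryptophan breakdown, was not tested because of low counts. The lipid enzyme Scd1 was at 489.9 to 767 CPM (median 595) in control and 71.3 to 129 CPM (median 104) in depleted libraries (log2 fold change 2.60 ± 0.23, adjusted p = 8.69e-10), and its regulator Srebf1 was higher at 1.97 (adjusted p = 1.86e-10), among 7 higher and 3 lower of 17 lipid genes. Of 20 cholesterol synthesis genes, 3 were higher, 4 were lower and 13 did not pass. Of 20 hypoxia genes, 8 were higher and 5 were lower, with the carbonic anhydrase gene Car12 at 315 to 464 CPM (median 401) in control and 3.95 to 5.40 CPM (median 4.74) in depleted libraries (log2 fold change 6.39 ± 0.32, adjusted p = 4.12e-14) and Car9 lower at -0.90 (adjusted p = 7.80e-05). Of 28 nuclear genes of the respiratory chain, 3 were higher and 8 lower.

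**Figure D4:**
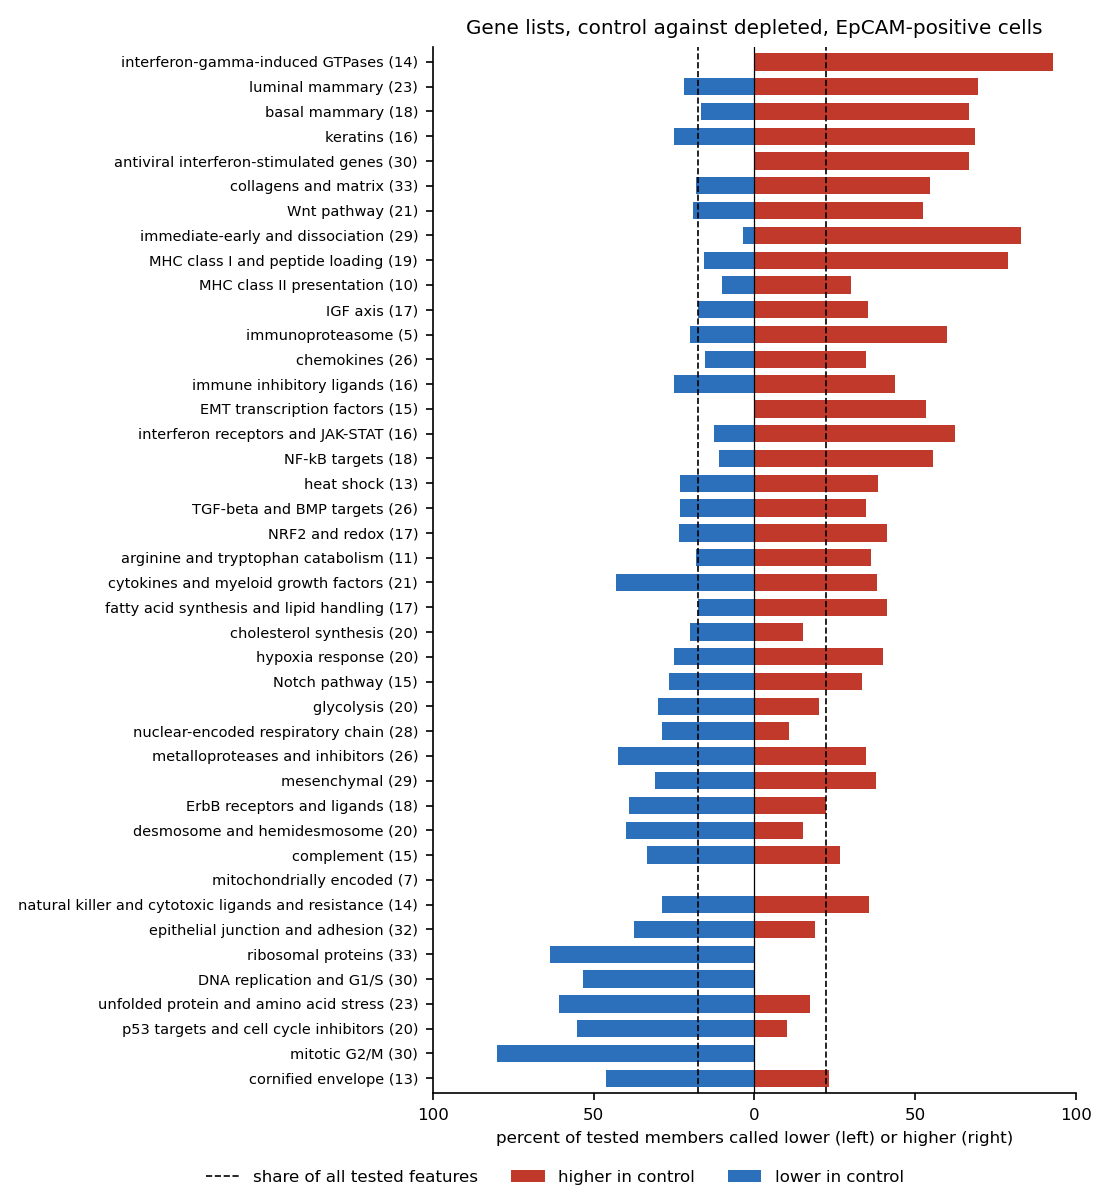
Share of the tested members of each gene list (number in brackets) that were called lower (left, blue) or higher (right, red) in control EpCAM-positive cells, with the share of all tested features as dashed lines (17.6% lower, 22.4% higher) and the lists ordered by median log2 fold change. Interferon-gamma-induced GTPases, luminal genes and basal genes are at the top and mitotic and cornified envelope genes at the bottom.

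By difference in mean CPM, the largest gains in control cells were those of Fn1, Ctsd, Fth1, Cp, Fos and Slpi. Ctsd, the lysosomal protease cathepsin D, was at 6680.4 to 8726 CPM (median 7980.4) in control and 4069 to 4936 CPM (median 4376) in depleted libraries (log2 fold change 0.85 ± 0.07, adjusted p = 1.36e-10). Slpi, a secreted protease inhibitor, was at 2743 to 4202 CPM (median 3839) in control and 815 to 1358 CPM (median 1196) in depleted libraries (log2 fold change 1.66 ± 0.15, adjusted p = 1.38e-09). Fth1, the ferritin heavy chain, was higher at 0.88 (adjusted p = 2.91e-05), and Cp, the copper-carrying ferroxidase ceruloplasmin, at 1.10 (adjusted p = 2.38e-07). The largest losses included those of Col18a1, Krt7, Krt18, Fbln2 and Flna, and Flna, an actin crosslinker, was lower at -0.92 (adjusted p = 5.14e-07).

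By fold change, the 12 largest gains among genes with at least 10 CPM and groups that did not overlap were Wfdc5, Pdlim3, Scrg1, Pappa, Igfbp5, Sostdc1, Wfdc12, Dcn, Bbox1, Smoc1, Iigp1 and R3hdml. Wfdc5, a small secreted protein of the whey acidic protein family, was at 22.7 to 89.1 CPM (median 63.9) in control libraries and at 0 in all depleted libraries, at least 2474-fold higher against a floor of 3 counts over the group. By the same floor Pdlim3, an actin-associated protein, was at least 1587-fold, Scrg1 at least 1226-fold, Pappa, a protease of IGF-binding proteins, at least 533-fold and Sostdc1, a secreted BMP and Wnt antagonist, at least 434-fold higher. Wfdc12 was higher by 1385-fold, with a counting interval of 474 to 6720.1, and Bbox1, an enzyme of carnitine synthesis, by 1568-fold, with a counting interval of 281 to 61969, both for counting error only. The 12 largest losses were Mmp9, Klk6, Ly6c2, Mcpt8, Klra1, Bmp7, Klk8, Klra4, Serpinb2, Acta1, Cdh17 and Cdh5. Ly6c2, a surface antigen otherwise known from monocytes, was at 0.193 to 0.884 CPM (median 0.653) in control and 88.2 to 96.0 CPM (median 92.5) in depleted libraries (log2 fold change -7.24 ± 0.34, adjusted p = 1.74e-14). The mean of Ly6c2 in the cultured line was 0.08 CPM. Klra4, a Ly49 receptor known from natural killer cells, was at 0.514 to 3.62 CPM (median 2.30) in control and 70.6 to 108 CPM (median 79.6) in depleted libraries (log2 fold change -5.27 ± 0.44, adjusted p = 4.29e-10), with a mean of 200.3 CPM in the cultured line, which holds no host cells. Cdh5, an endothelial cadherin, was at 0.129 to 7.05 CPM (median 0.796) in control and 28.7 to 58.3 CPM (median 31.3) in depleted libraries (log2 fold change -4.11 ± 0.69, adjusted p = 2.58e-05), and at -4.98 without control library 1, whereas Pecam1, another endothelial marker, was higher at 3.07 (adjusted p = 0.000117), or at 3.76 without depleted library 6.

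The same contrast in EpCAM-negative cells of the same treatments was set against the change described so far. In EpCAM-negative cells 7501 features differed (45.1%), 3862 of them higher (23.2%) and 3639 lower (21.9%) in control cells. Of the features called in both fractions 4110 had the same direction and 314 opposite directions. The difference of the changes, EpCAM-positive minus EpCAM-negative, passed for 2999 features (18%), with 1553 more positive (9.33%) and 1446 more negative (8.69%) in EpCAM-positive cells. The balance of this count moved with scaling: with total counts in place of normalization factors, 2729 were more positive and 903 more negative, and the median of all differences moved to 0.22.

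The interferon-gamma-induced GTPases were higher in control cells of both fractions. Of 14 GTPases, 13 were higher in EpCAM-negative cells also, and the difference passed for 2, both more positive in EpCAM-positive cells. For class I genes the difference was more negative for 10 of 19 and more positive for 0. Of these 10, 7 had positive log2 fold changes in both fractions, the smaller in EpCAM-positive cells, and 3 were the chaperone genes Calr, Canx and Pdia3. Mitotic genes differed between the fractions: the difference was more negative in EpCAM-positive cells for 24 of 30, and in EpCAM-negative cells 4 were higher and 0 lower. For Ckap2 the change was -1.996 in EpCAM-positive cells and 0.21 in the negative fraction (difference -2.20 ± 0.28, adjusted p = 3.53e-06). For immediate-early genes the difference was more positive for 19 of 29 and more negative for 0. In EpCAM-negative cells 8 immediate-early genes were higher and 5 lower. For junction genes the difference was more positive for 19 of 32, with 5 higher and 21 lower in EpCAM-negative cells. For keratins it was more positive for 10 of 16, with 0 higher and 10 lower in EpCAM-negative cells. A more positive difference can thus be a smaller decrease in EpCAM-positive cells. Krt6a changed by 5.04 in EpCAM-positive cells and by -3.24 in the negative fraction (difference 8.27 ± 0.66, adjusted p = 2.57e-09). Epcam changed by -1.04 and -6.42 (difference 5.37 ± 0.43, adjusted p = 2.57e-09), a gene that the sort itself used to divide the fractions.

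The 5 largest differences in each direction were led by Pnpla1 and Krt19 among those more positive and by Muc15 and Mmp3 among those more negative in EpCAM-positive cells. Pnpla1, a lipid enzyme of the epidermal barrier, was higher in EpCAM-positive cells at 5.66 (adjusted p = 6.31e-06), or at 6.46 without depleted library 6, and at -4.34 in EpCAM-negative cells. Mmp3 changed by -1.15 in EpCAM-positive cells and by 3.63 in the negative fraction (difference -4.78 ± 0.36, adjusted p = 1.29e-09). Lbp, which binds bacterial lipopolysaccharide, was higher in both fractions, at 4.89 and 9.12, by less in EpCAM-positive cells (difference -4.23 ± 0.38, adjusted p = 1.59e-08). Arg1 changed by 1.73 in EpCAM-positive cells and by -2.47 in the negative fraction (difference 4.20 ± 0.53, adjusted p = 3.39e-06).

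**Figure D5:**
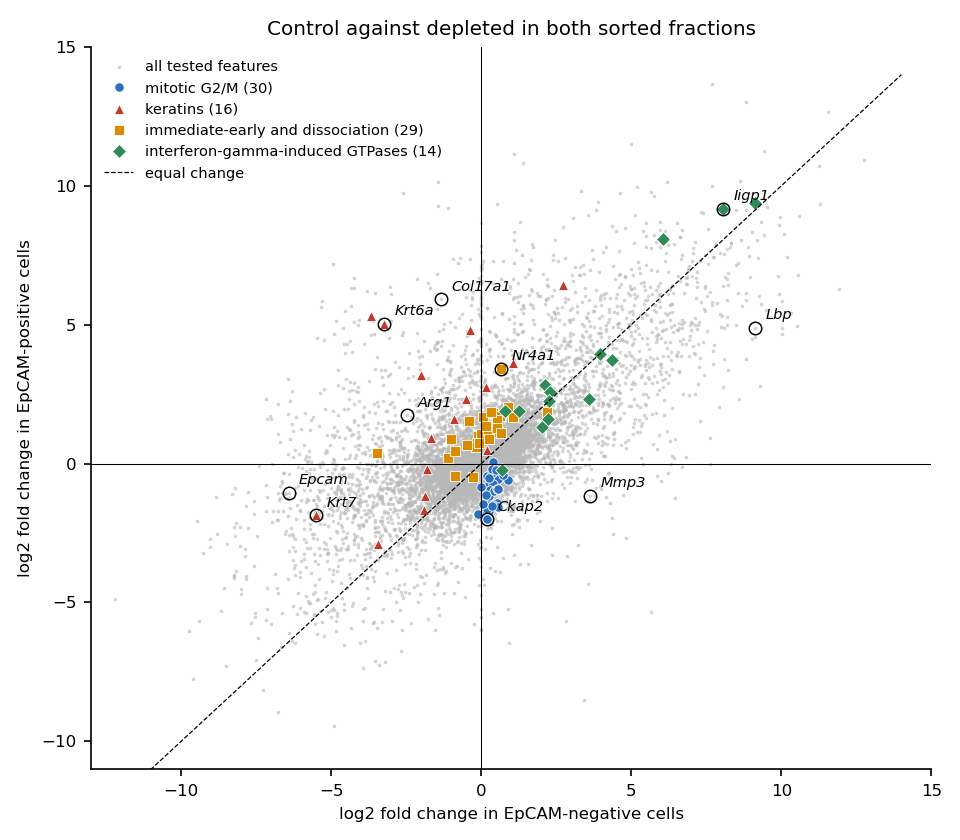
Log2 fold change of control over depleted in EpCAM-positive cells (y axis) against that in EpCAM-negative cells (x axis) for the 16637 tested features in grey, with 4 gene lists in colour, 10 genes circled and a dashed line of equal change. The GTPases lie along the line, the mitotic genes lie below 0 in EpCAM-positive cells and close to 0 in EpCAM-negative cells, and Krt6a and Mmp3 have opposite signs in the fractions.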

How the data were processed

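RNA of 26 libraries was amplified with the SMARTer v4 kit, made into libraries with Nextera XT and sequenced as single reads, per the labels' protocols; strand and single molecules are not marked. The authors deposited raw counts per gene, aligned with STAR to mm9 (submitters' processing notes), with no counting program or annotation named in the labels. A second table that the authors deposited holds values on a log2-like scale, made with DESeq2 1.22.2 per the submitters' processing notes, and was used only as an alternative. Of 47729 Ensembl genes, 47224 were matched to a GENCODE M21 symbol by identifier; coordinates are those of RefSeq on GRCm38.p6 and were not mixed with the counts' build.

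The counts were tested with edgeR 4.0.16 (R 4.3.3): TMM normalization, its filter on counts per group (16637 of 47730 features kept), a quasi-likelihood fit of all 26 libraries with 1 coefficient per group, and Benjamini-Hochberg adjustment with a threshold of 0.05. The contrasts were control against depleted in each fraction and their difference. Genes that share reads with close copies are uncertain. Libraries are numbered 1 to 6 in each group. The labels do not say which libraries share a mouse, so p-values measure the spread between these samples, which may in part be technical. The common biological coefficient of variation was 0.293. Ratios for genes with few counts have exact 95% intervals for counting error, and a group at 0 was set to 3 counts, which left the list medians given unchanged.

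The genes named are the 12 largest changes per direction (at least 10 CPM, groups not overlapping), the 6 largest CPM differences and the 5 largest differences between fractions per direction, up to 5 members of each list with the smallest p, and 30 genes given whether or not they pass. Not every such gene is printed. The members, lists and rule were chosen with earlier results of these data known. Alternatives were DESeq2 1.42.0, limma 3.58.1 on the authors' log2 values, other normalizations and filters, thinned counts, blocks and leaving out each library. The code was tested on simulated data.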

Additional observations from a re-analysis of the deposited data

Results flagged for a closer look

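For many of the genes named above, the control against depleted change differed between EpCAM-positive and EpCAM-negative cells, tested in the same edgeR fit. Values are differences of log2 fold changes, EpCAM-positive minus EpCAM-negative, each with an adjusted p under 0.05. A positive value does not by itself mean a higher level in control EpCAM-positive cells. Bmp7, Ptprc, Ctss and Asns, for example, had negative log2 fold changes in both fractions, the smaller decrease in EpCAM-positive cells. Among keratins the difference was 8.98 for Krt19, 8.27 for Krt6a, 5.20 for Krt17, 3.63 for Krt7, 2.63 for Krt14 and 0.71 for Krt8. For adhesion and polarity genes it was 7.41 for Pard6b, 7.27 for Col17a1, 5.43 for Ocln, 5.37 for Epcam and 1.44 for Cldn3, whereas the adhesion genes Cdh1 and Itga3 gave -1.05 and -0.78. For regulators of epithelial state it was 3.07 for Snai2, 2.49 for Zeb1 and 1.15 for Trp63, all 3 with a larger change in EpCAM-positive cells. Pnpla1 gave 10.00 and Nqo1 5.81, both enzymes whose log2 fold changes had opposite signs in the fractions.

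Signalling and immune genes gave positive values of 5.23 for Wnt5b, 4.20 for Arg1, 3.75 for Bmp7, 2.34 for Irs2, 2.19 for Igfbp3, 2.18 for Nos2, 2.20 for Ly6d, 0.56 for Cdkn1a and 0.45 for Ifngr1. Among inducible genes the values were 2.77 for Nr4a1, 1.43 for Nfkbia, 1.16 for Hspb1, 1.00 for Socs3 and 0.98 for Fos. The GTPases Gbp2 and Gbp7 gave 1.08 and 0.66, the class II genes H2-DMa and Ctss 1.77 and 2.30, and the metabolic genes Asns and Scd1 1.89 and 1.68. Matrix genes with positive values were Col6a1 at 2.74, Dcn at 2.30, Timp3 at 2.02 and Postn at 1.79. Markers of other cell types with positive values were Pecam1 at 3.83, Ptprc at 3.78 and Pdgfrb at 1.54.

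Negative values included those of class I genes, at -1.30 for H2-K1, -0.99 for Tap1, -0.88 for B2m, -0.84 for H2-D1, -0.56 for Calr and -0.36 for Tapbp, and that of the antiviral gene Ifit3 at -2.16. Cell cycle genes gave -2.20 for Ckap2, -1.95 for Ccnb2, -1.43 for Mki67, -0.82 for Ccnd1, -0.60 for Mcm2 and -0.30 for Trp53. Matrix and protease genes gave -4.78 for Mmp3, -3.25 for Lum, -2.79 for Col8a1, -2.46 for Col3a1, -0.66 for Spp1, -2.18 for Adamts1, -1.96 for Col1a1, -1.25 for Col18a1 and -0.91 for Fbln2. Secreted proteins gave -4.23 for Lbp, -2.58 for Tslp, -1.91 for Wfdc3, -1.62 for Wfdc2, -1.27 for Cp, -1.20 for Slpi, -0.54 for Lgals9 and -0.53 for Ctsd. Surface and signalling genes gave -3.82 for Ly6c2, -2.92 for Hey1, -1.78 for Procr, -1.18 for the rat Neu transgene RatActivatedNeu, -1.10 for Notch1, -0.82 for Tnfrsf10b, -0.78 for Hsp90b1, -0.61 for Irs1, -0.54 for Cd44 and -0.42 for Nt5e.

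Single libraries lay apart from the other 5 of their group for some genes, by a gap between the extreme library and its neighbour on a log2 scale of CPM plus 1 that exceeded the critical value of Dixon's test; chance gives this in about 1 in 20 groups. Control library 6 was low for several unrelated genes: Dcn had 781 CPM in control 6 against 1856 to 2346 CPM, Trp63 had 118 CPM in control 6 against 165 to 185 CPM, Fbln2 had 1581 CPM in control 6 against 2612 to 3491 CPM, Vegfa had 344 CPM in control 6 against 510.5 to 587 CPM, Car9 had 27.5 CPM in control 6 against 38.2 to 45.2 CPM and Tgfb1 had 20.0 CPM in control 6 against 24.7 to 27.8 CPM. Control library 1 was high for H2-DMa, with 20.9 CPM in control 1 against 3.95 to 5.67 CPM, and low for epithelial and death receptor genes. There Cldn3 had 52.6 CPM in control 1 against 91.5 to 115 CPM, Ocln had 2.52 CPM in control 1 against 6.53 to 9.94 CPM and Tnfrsf10b had 14.6 CPM in control 1 against 21.8 to 26.8 CPM. In control library 4, Ehf had 287 CPM in control 4 against 164 to 194 CPM, Lgr5 had 31.5 CPM in control 4 against 5.39 to 10.4 CPM and Sostdc1 had 2.44 CPM in control 4 against 9.37 to 15.2 CPM. In control library 3, Cd200 had 1022 CPM in control 3 against 1206 to 1288 CPM, Lama3 had 186 CPM in control 3 against 241 to 272 CPM and Slpi had 2743 CPM in control 3 against 3619 to 4202 CPM.

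Single depleted libraries also stood apart for some genes, at low levels and at high ones. In depleted library 2, Hey1 had 4.96 CPM in depleted 2 against 12.6 to 15.005 CPM, Slpi had 815 CPM in depleted 2 against 1152 to 1358 CPM, Erbb2 had 108 CPM in depleted 2 against 149 to 179.6 CPM, Elf5 had 3.17 CPM in depleted 2 against 4.65 to 5.55 CPM and Igfbp3 had 58.9 CPM in depleted 2 against 29.9 to 37.2 CPM. In depleted library 4, Pdgfrb had 2.79 CPM in depleted 4 against 0.853 to 1.24 CPM, Adamts5 had 0.589 CPM in depleted 4 against 0.0444 to 0.208 CPM and Bbox1 had 0.0536 CPM in depleted 4 against 0 CPM in each of the others. In the remaining depleted libraries, Bmp2 had 0.620 CPM in depleted 3 against 0 to 0.0536 CPM, Egfr had 37.0 CPM in depleted 5 against 49.1 to 56.960 CPM, Lgals9 had 111 CPM in depleted 5 against 70.6 to 80.9 CPM, Fn1 had 4489.6 CPM in depleted 1 against 5828 to 6484 CPM and Snai2 had 6.17 CPM in depleted 6 against 2.57 to 3.59 CPM.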

How the results depend on the processing

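The count of 6658 features that differed between control and depleted EpCAM-positive cells was 6745 with DESeq2, 6669 with DESeq2's size factors in edgeR, 6579 with total counts only, 6595 with limma on the authors' normalized values, 6440 with libraries thinned to the lowest total, 6248 with no filter on low counts, 5994 with the 12 EpCAM-positive libraries fitted alone and 5235 with a filter at 10 CPM. Leaving out 1 library at a time gave 6132 to 6522. The count of features changed by at least 2-fold fell to 1323 (906 higher and 417 lower) with the 10 CPM filter, which tests fewer genes, and to 1422 (1027 higher and 395 lower) with limma on the authors' values, where the cause was not tested; leaving out 1 library gave 2515 to 2693. For the difference between the fractions, 2729 features were more positive and 903 more negative with total counts only, which gave 75.1% of calls as more positive against 51.8%. DESeq2 called 3351 such differences and a block by treatment and replicate number 3405. The labels do not say that EpCAM-positive and EpCAM-negative libraries of 1 number share a tumour; their deviations correlated at 0.0497 to 0.172 in control and 0.0175 to 0.0469 in depleted libraries, with 4 and 3 of 6 correlating best with their own number. No result reversed under the alternatives run.

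Control and depleted libraries with the same number come from different mice, and their deviations from the group means correlated at -0.065 to -0.014, with 0 of 6 correlating best with their own number, so the numbers do not pair them. A replicate block nevertheless gave 5417 calls (2858 higher, 2559 lower) among the features left by the filter. Of 330 named genes, the direction and the side of the threshold were kept for all 330 with total counts and for 322 of the 327 with a value in DESeq2. They were kept for 304 of the 309 with a value when the 12 EpCAM-positive libraries were fitted alone, and for 303 of the same number with the replicate block in those libraries. The simulated counts covered 15085 genes at a single dispersion. Of the 89 genes changed by a log2 value of 1, 65.2% were recovered, and of the 90 changed by 2, 98.9%. Far fewer genes were changed there than the 40% called in these data, so the shares recovered do not carry over to these data.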

Other observations

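Gene families that recur among the largest differences were looked at after their values were seen, so their counts carry no test. The whey acidic protein family holds small secreted protease inhibitors and their relatives. Of 14 tested members, 12 were higher in control cells, 1 was lower and 1 did not pass. Wfdc5, Wfdc6a, Wfdc6b and Wfdc15b had 0 counts in depleted libraries, and several others had few. Such genes could pass the filter only through other groups, so the count of higher members was in part fixed by the filter. Wfdc3 was at 49.5 to 154 CPM (median 101) in control and 14.6 to 37.3 CPM (median 27.3) in depleted libraries (log2 fold change 1.93 ± 0.33, adjusted p = 3.13e-05), and Wfdc2 was the lower member at -1.26 (adjusted p = 3.50e-08). All 5 tested tissue kallikreins were lower, with a median of -5.42. Integrin chains were divided, with 6 higher, 10 lower and 9 not passing of 25 tested. Itga3, a laminin receptor chain, was at 244 to 333 CPM (median 257) in control and 1166 to 1421 CPM (median 1265) in depleted libraries (log2 fold change -2.24 ± 0.10, adjusted p = 6.98e-15), Itga2, a collagen receptor chain, was lower at -2.92 (adjusted p = 3.35e-05), and Itga11, a collagen receptor chain of fibroblasts, was higher at 8.65 (adjusted p = 2.84e-11), or at 9.27 without depleted library 2.

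Receptors of the Ly49 family, known from natural killer cells, were found in the cultured line and in depleted tumours. Of 8 tested Ly49 receptor genes, 6 were lower in control cells, 0 were higher and 2 did not pass, with a median of -2.93. These genes are near-identical copies, so the share of reads given to each is uncertain. Klra1 was at 0.0593 to 0.384 CPM (median 0.182) in control and 7.01 to 15.4 CPM (median 11.5) in depleted libraries, with a mean of 28.1 CPM in culture. Of 17 tested genes with Ly6 and uPAR domains, 4 were higher and 8 were lower. Ly6d, an antigen of epithelium and early B cells, was at 1577 to 2296 CPM (median 1957) in control and 41.3 to 72.9 CPM (median 49.0) in depleted libraries (log2 fold change 5.17 ± 0.33, adjusted p = 3.79e-12). The mean of Ly6d in culture was 1.09 CPM.

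Of features called higher, 105 had at least 10 CPM in control and at most 1 CPM in depleted cells as group means, and 5 features called lower had the opposite order: Klra1, Ly6c2, Mcpt8, Mmp9 and Npnt, the last named after its values were seen. Of the 105, 85 had a mean of at most 1 CPM in the cultured line. Of the same 105, 96 were also called higher in EpCAM-negative cells, against 23.2% of all tested features. For 20 of the 105 the difference between the fractions passed, against 18% of all tested features. The mean of the 2 cultures was nearer to the depleted than to the control mean for 1615 of 1876 features that were called at least 2-fold higher (86.1%) and for 511 of 824 at least 2-fold lower (62.0%). Whether the cultures were grown separately is not stated. The shares nearer to the depleted mean carry no test and were not set against the share of all tested features.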
